A study of Homo sapiens and Mus musculus with 12 samples.

Results

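Integrins are cell surface receptors built from an alpha and a beta subunit, and they tie the matrix outside a cell to actin filaments inside it. At focal adhesions, talin and the kindlins bind the beta tail, vinculin and the actinins join it to actin, and focal adhesion kinase and SRC signal from the site through docking proteins such as paxillin. Many genes for actin and its binding proteins are transcribed under serum response factor (SRF), which binds a promoter sequence called the CArG box. The levels of 41 genes of this machinery were followed here in cells treated with ponatinib, a tyrosine kinase inhibitor used in leukemia that blocks ABL, SRC family and several receptor kinases. The genes were chosen by name, as human symbols and the mouse genes of the same symbol, from 63677 human and 47729 mouse gene identifiers in the deposited counts, and all 41 were found in both tables.

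RNA-seq compared ponatinib (1 μM, 24 h) with its solvent DMSO in MDA-MB-231, a human triple-negative breast cancer line, and in 4T1, a mouse mammary carcinoma line, to show what the drug did to transcription in each. Each of the 4 groups had 3 libraries, 12 in all. Both lines were labelled wild type and grown in DMEM with fetal bovine serum, and each is a single line of its species. The labels do not say whether the 3 libraries of a group came from separate cultures, so that p-values measure only the spread between these libraries. Library totals ran from 15012884 to 17301760 counts for MDA-MB-231, and the 4T1 libraries held 17800675 to 18951493. Levels are given as CPM, read counts divided by library totals scaled by edgeR's TMM method, with the SD over 3 libraries, and levels of different genes are compared only as CPM per kilobase of exon. A change is a log2 fold change of ponatinib against DMSO with its standard error, tested with edgeR's quasi-likelihood test and adjusted over all genes tested in that line. Libraries were not paired in this test unless a replicate block is named.

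Both lines were labelled as epithelial cells. KRT8, KRT18 and KRT19, the keratins of simple epithelium, were counted in every library of both lines, and the counts of VIM, the filament protein of mesenchymal cells, lay between 12821 and 70690. The junction protein CDH1, however, had at most 1 count in any MDA-MB-231 library, against 14251 to 18963 counts in 4T1. The 5 epithelial markers summed to 1623 to 1992 CPM with DMSO and 2240 to 2800 CPM with ponatinib in MDA-MB-231, where KRT8 (log2 fold change 0.88 ± 0.11, adjusted p = 2.9e-05) and EPCAM (0.41 ± 0.15, adjusted p = 0.033) rose, KRT18 (0.12) and KRT19 (-0.027) did not pass, and VIM fell (-0.66 ± 0.10, adjusted p = 0.00024). In 4T1 the sum was 7878 to 9073 CPM with DMSO and 8022 to 8835 CPM with ponatinib, where Krt18 fell (-0.54 ± 0.089, adjusted p = 0.00012), Krt8 rose (0.24 ± 0.088, adjusted p = 0.03), and Krt19 (0.21), Epcam (-0.25), Cdh1 (0.13) and Vim (0.15) did not pass. The 5 leukocyte markers of MDA-MB-231 reached at most 1 count each, and none of the 4 in 4T1 passed 43 counts. The 4 endothelial markers summed to 4.05 to 4.97 CPM with DMSO and 2.90 to 5.48 CPM with ponatinib in MDA-MB-231 and to 2.89 to 5.09 CPM and 0.922 to 1.45 CPM in 4T1, most of it the growth factor receptor KDR, while the defining marker CDH5 had at most 6 counts. The 5 fibroblast markers summed to 25.8 to 31.3 CPM with DMSO and 72.8 to 77.1 CPM with ponatinib in MDA-MB-231, nearly all of it COL1A1, while DCN and LUM stayed at or below 1 count. In 4T1 this sum was 5.95 to 6.89 CPM and 9.51 to 10.2 CPM, with Col1a2, Dcn and Lum at 0 in every library. What part cells of another type had in the values below was not tested.

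In MDA-MB-231, 37 of the 41 genes had enough counts to be tested, of which 17 fell, 7 rose and 13 did not pass an adjusted p of 0.05. In 4T1, 38 were tested, of which 13 fell, 11 rose and 14 did not pass. Over all genes tested, 54% passed in MDA-MB-231 (26.8% lower and 27.2% higher) and 59% in 4T1 (29.4% lower and 29.5% higher), so that most calls among the adhesion genes have to be read against a response of this breadth. For the tested adhesion genes of MDA-MB-231 the median log2 fold change was -0.11, and for those of 4T1 it was -0.038, beside 0.015 and -0.00014 over all genes. The thresholds of the study, an unadjusted p under 0.05 with a fold of at least 1.5, left 14 genes of MDA-MB-231, 8 of them lower (33.8% of all genes passed, 14.5% lower and 19.3% higher), and 15 genes of 4T1, again 8 of them lower (31.5% of all genes, 13.1% lower and 18.4% higher). CPM of the DMSO and ponatinib libraries did not overlap for 28 genes in MDA-MB-231 and for 27 in 4T1, where 60.4% and 63.4% of all tested genes showed no overlap. With libraries scaled by total counts alone, the median of all genes moved to 0.11 and 0.12, and 15 genes were then called lower and 10 higher for MDA-MB-231, against 10 lower and 13 higher for 4T1. The plot of fold changes by gene shows the whole set.

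**Figure D1:**
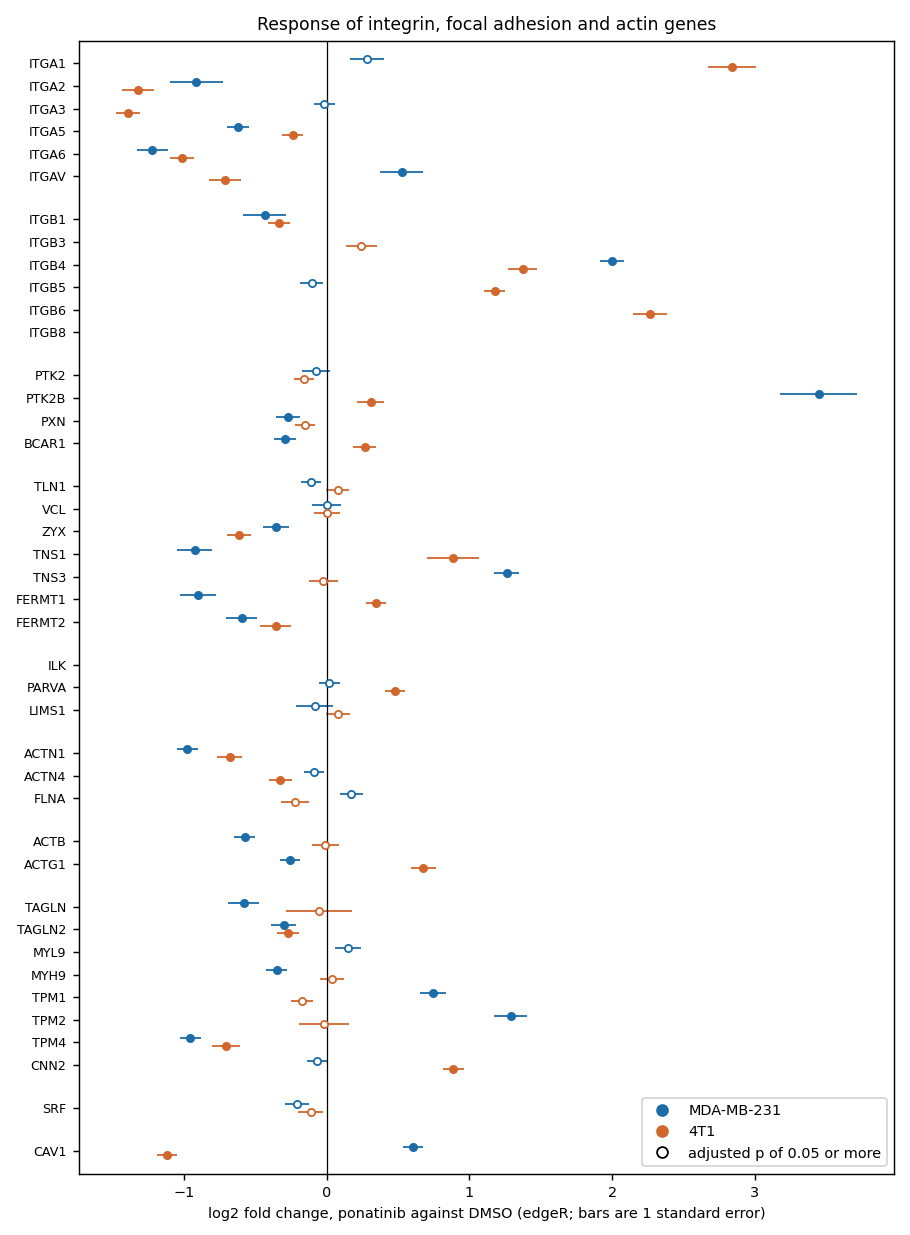
Log2 fold change of ponatinib against DMSO (x axis) for each tested gene (rows, grouped by role) in MDA-MB-231 (blue) and 4T1 (orange); bars are 1 standard error, and open circles mark an adjusted p of 0.05 or more. ITGA2, ITGA6, ACTN1 and TPM4 lie left of 0 in both lines and ITGB4 right of 0 in both, while CAV1 and ITGAV lie on opposite sides.

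Of the integrin alpha subunits, ITGA6 and ITGA2 fell in both lines, and ITGA3 fell in 4T1. ITGA6, which pairs with ITGB1 or ITGB4 to bind laminin, lies at chr2:172427354-172506459 (hg38, ENSG00000091409). Its level was 143, 179 and 177 CPM in the DMSO libraries of MDA-MB-231 and 64.2, 71.5 and 78.5 CPM in the ponatinib libraries. In 4T1 the corresponding levels were 481, 555 and 493 CPM and 269, 256 and 232 CPM. All 3 treated libraries of each line thus lay below the lowest control, and the log2 fold change was -1.22 ± 0.11 in MDA-MB-231 (adjusted p = 2.4e-06) and -1.02 ± 0.084 in 4T1 (adjusted p = 1.4e-07). ITGA2, the collagen-binding partner of ITGB1, gave 18.97, 25.8 and 23.6 CPM with DMSO and 8.52, 12.6 and 15.1 CPM with ponatinib in MDA-MB-231. In 4T1 it gave 585, 659 and 559.9 CPM and 289.8, 226 and 205 CPM. Again no treated library reached a control, with log2 fold changes of -0.91 ± 0.19 (adjusted p = 0.0014) and -1.32 ± 0.11 (adjusted p = 1.9e-07). The fibronectin receptor subunit ITGA5 fell by less, from 208 ± 7.42 to 136 ± 10.05 CPM in MDA-MB-231 (log2 fold change -0.62, adjusted p = 4.5e-05) and from 102 ± 4.19 to 86.5 ± 3.65 CPM in 4T1 (-0.24, adjusted p = 0.012). The call in 4T1 was lost without ponatinib library 2 (adjusted p = 0.055) and with total counts (adjusted p = 0.17).

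ITGA3, ITGA1 and ITGAV answered differently in the lines. ITGA3, another laminin-binding subunit, had the highest level per kilobase of the 6 alpha subunits in all 4 groups. In MDA-MB-231 its level was 798, 746 and 749.8 CPM with DMSO and 779.9, 722 and 768 CPM with ponatinib, with overlapping groups and a log2 fold change of -0.015 ± 0.072 (adjusted p = 0.88). In 4T1 it gave 1247, 1163 and 1113 CPM and 486, 423 and 435 CPM, a log2 fold change of -1.39 ± 0.083 (adjusted p = 4.8e-09). Itga1, the collagen and laminin receptor subunit, was low in 4T1 controls at 1.42, 2.11 and 1.97 CPM and stood at 13.6, 13.2 and 12.7 CPM after ponatinib. Its log2 fold change there was 2.84 ± 0.17 (adjusted p = 4.6e-09), against 0.28 ± 0.12 in MDA-MB-231 (adjusted p = 0.062), where levels were 11.3, 13.3 and 12.3 CPM and 13.9, 15.4 and 15.5 CPM. The groups of MDA-MB-231 did not overlap for ITGA1, and its adjusted p was 0.018 once the replicate number entered as a block, 0.036 with total counts, 0.044 with at least 10 counts in every library and 0.045 without ponatinib library 1. ITGAV, which pairs with several beta subunits to bind vitronectin and fibronectin, rose in MDA-MB-231 from 34.8 ± 6.57 to 50.1 ± 8.59 CPM (log2 fold change 0.53, adjusted p = 0.011) and fell in 4T1 from 236 ± 30.7 to 144 ± 22.7 CPM (-0.71, adjusted p = 7.2e-05). The rise in MDA-MB-231 missed the threshold without ponatinib library 2 (adjusted p = 0.064). Of the exon bases of ITGA1, 13.2% are shared with other counted genes in the human annotation and 10.2% in the mouse one.

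Among the beta subunits, ITGB4 rose in both lines while ITGB1, the partner of most alpha subunits, fell by a smaller amount. ITGB4, the partner of ITGA6 in hemidesmosomes, lies at chr17:75721328-75757818 (hg38, ENSG00000132470). It was counted at 21.9, 22.1 and 23.5 CPM in the controls of MDA-MB-231 and at 91.98, 85.5 and 92.4 CPM after ponatinib. In 4T1 it was counted at 22.1, 17.7 and 20.3 CPM and 53.9, 49.5 and 52.2 CPM. Replicates were close to each other in all 4 groups, and the log2 fold changes were 2.0 ± 0.084 (adjusted p = 1e-08) and 1.37 ± 0.10 (adjusted p = 3.5e-08). For Itgb4, 14.9% of the exon bases are shared with Galk1 on the other strand. ITGB1 gave 312, 428 and 419 CPM with DMSO and 219, 303 and 336 CPM with ponatinib in MDA-MB-231, so the groups overlapped. Its log2 fold change of -0.43 ± 0.15 (adjusted p = 0.03) was not called without DMSO library 2 (adjusted p = 0.11), without DMSO library 3 (0.097), without ponatinib library 2 (0.054) or with total counts (0.11). In 4T1, Itgb1 gave 328, 390.5 and 362 CPM and 280.0, 300.4 and 277 CPM without overlap, a log2 fold change of -0.33 ± 0.080 (adjusted p = 0.0024).

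Of ITGB3, ITGB5, ITGB6 and ITGB8, which can pair with ITGAV, the mouse genes Itgb5 and Itgb6 passed in 4T1. In MDA-MB-231 only ITGB5 of these had enough counts to be tested, so the lines cannot be compared for the others by their calls. Itgb5 stood at 125, 111 and 123 CPM with DMSO and 272, 263 and 276 CPM with ponatinib (log2 fold change 1.18 ± 0.074, adjusted p = 9e-09), whereas in MDA-MB-231 ITGB5 gave 101 ± 8.14 and 94.2 ± 2.96 CPM (-0.11 ± 0.081, adjusted p = 0.29). Itgb6, a subunit of epithelial cells known for activating latent TGF-beta, stood at 5.61, 6.22 and 5.41 CPM and 28.2, 28.7 and 25.97 CPM in 4T1, with every treated library above every control (log2 fold change 2.26 ± 0.12, adjusted p = 1.4e-09). In MDA-MB-231, ITGB6 had 0 counts over the 3 control libraries and 17 over the treated ones, which is at least 5.28-fold higher when the controls are set to a floor of 3 counts over the group. That line was also near the limit of detection for ITGB3, the vitronectin receptor subunit, with 17 counts over the controls and 2 over the treated libraries. The ratio of DMSO to ponatinib was 9.12 for ITGB3 (95% exact interval 2.17 to 81.4, counting error only), and 33.2% of its exon bases are shared with another counted gene on the same strand. ITGB8 had 6 and 23 counts there, a ratio of ponatinib to DMSO of 3.57 (1.41 to 10.7). In 4T1, Itgb3 gave 38.5, 36.7 and 35.9 CPM and 51.7, 41.2 and 38.5 CPM, overlapping groups with a log2 fold change of 0.24 ± 0.11 (adjusted p = 0.064, or 0.014 with the replicate block, 0.01 with total counts, 0.041 with no filter on low counts, 0.048 with at least 10 counts in every library, 0.048 without DMSO library 1 and 0.026 without ponatinib library 3). Itgb8 had 12 and 7 counts in 4T1 and was not tested. The plot of CPM by library shows the 12 subunits.

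**Figure D2:**
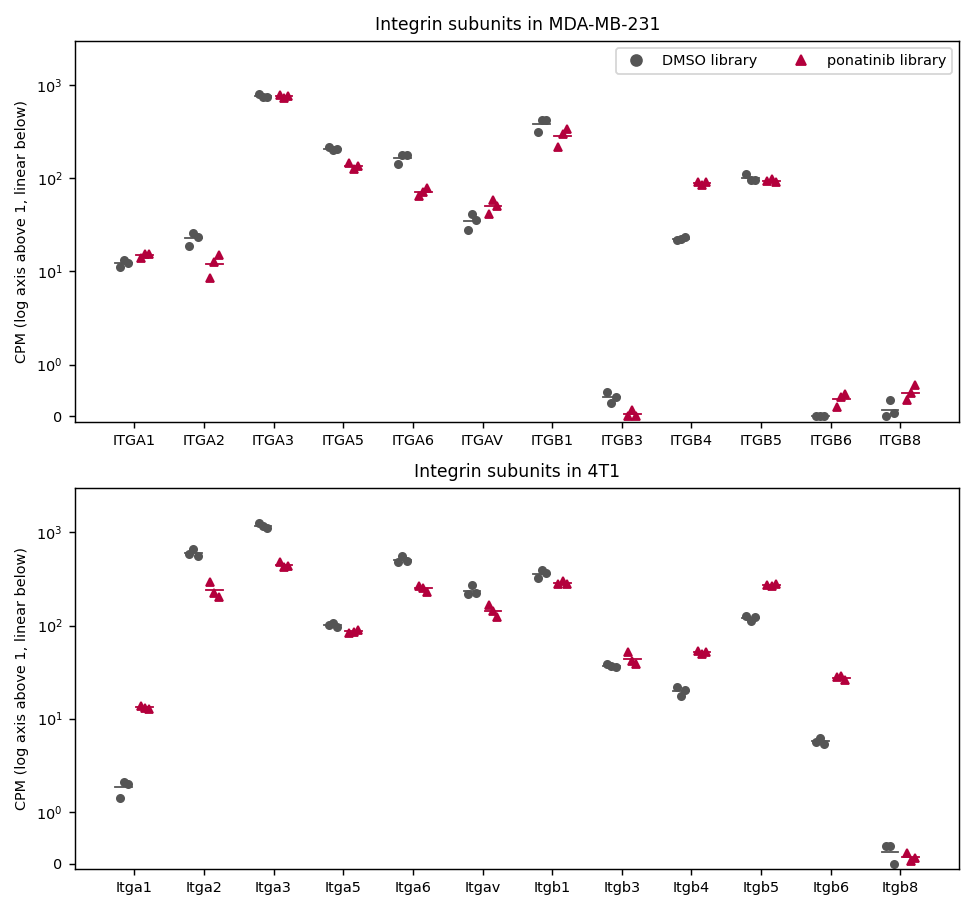
CPM of each integrin subunit (y axis, logarithmic above 1 and linear below) in every library of MDA-MB-231 (top) and 4T1 (bottom); gray circles are DMSO libraries, red triangles ponatinib libraries and short lines group means. ITGB4 and Itgb4, Itgb5, Itgb6 and Itga1 show treated libraries well above the controls, and ITGA6, Itga2 and Itga3 well below.

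A share within a family does not depend on how libraries are scaled. The level per kilobase of each subunit was therefore divided by the sum over the 6 alpha or the 6 beta subunits in the same library. In MDA-MB-231, ITGB1 made up 51.4, 61.9 and 60.96% of the beta sum in the controls and 35.1, 42.9 and 45.2% after ponatinib, while ITGB4 made up 7.76, 6.88 and 7.35% and 31.6, 26.1 and 26.8%. In 4T1, Itgb1 held 66.7, 72.7 and 69.7% and then 44.8, 48.1 and 45.4%. There Itgb5 held 21.6, 17.4 and 20.01% in the controls and 36.9, 35.6 and 38.3% in the treated libraries, and Itgb4 (3.23% ± 0.500 to 6.93% ± 0.320) and Itgb6 (0.908% ± 0.0520 to 3.63% ± 0.144) were also higher. Among the 6, the share of ITGB1 was lower in each treated library than in each control of both lines. The direction in 4T1 rests on which subunits are summed. With the other counted beta subunits added to the sum, Itgb7, which pairs with alpha subunits of leukocytes, held 68.8, 62.3 and 62.96% in the controls of 4T1 and 28.5, 26.6 and 28.6% after ponatinib. The share of Itgb1 was then 20.7, 27.2 and 25.7% in the controls and 31.98, 35.2 and 32.4% in the treated libraries, higher instead of lower. That of Itgb5 went from 6.88% ± 0.456 to 26.6% ± 0.636, a larger step than among the 6. In MDA-MB-231, where ITGB7 was a minor part, the share of ITGB1 with all counted subunits was 53.5% ± 6.32 and 36.6% ± 5.27, and that of ITGB4 6.73% ± 0.277 and 25.05% ± 2.33. ITGA3 made up 57.2% ± 2.11 of the alpha sum in MDA-MB-231 controls and 69.4% ± 0.930 after ponatinib, but 54.7% ± 2.46 and 47.7% ± 1.41 in 4T1. ITGA6 held 18.3% ± 2.24 and 9.62% ± 0.974 in MDA-MB-231 against 12.1% ± 0.775 and 13.7% ± 0.651 in 4T1, so that its share among the 6 was lower with ponatinib in the human line and higher in the mouse line although its level fell in both. With all counted alpha subunits in the sum, the groups of Itga6 overlapped in 4T1 (11.5% ± 0.783 and 11.9% ± 0.563). In that sum Itga7, which is not among the 6, held 5.40% ± 0.459 in the controls and 13.3% ± 0.922 after ponatinib. Among the 6, Itga5 rose as a share in 4T1, from 5.19% ± 0.0568 to 10.1% ± 1.22, since the other large alpha subunits of the 6 fell by more. Each other share named here had groups that did not overlap, for which the two-sided exact permutation test gives p = 0.1, the smallest that 3 against 3 libraries allow. With the longest transcript of each gene in place of all its exons, ITGB4 went from 4.01% to 17.6% of the 6 beta subunits in MDA-MB-231, and in treated 4T1 libraries Itgb5 (42.8%) passed Itgb1 (41.5%). The sums over all counted subunits were added after the data had been seen. They are shown by library as stacked bars.

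**Figure D3:**
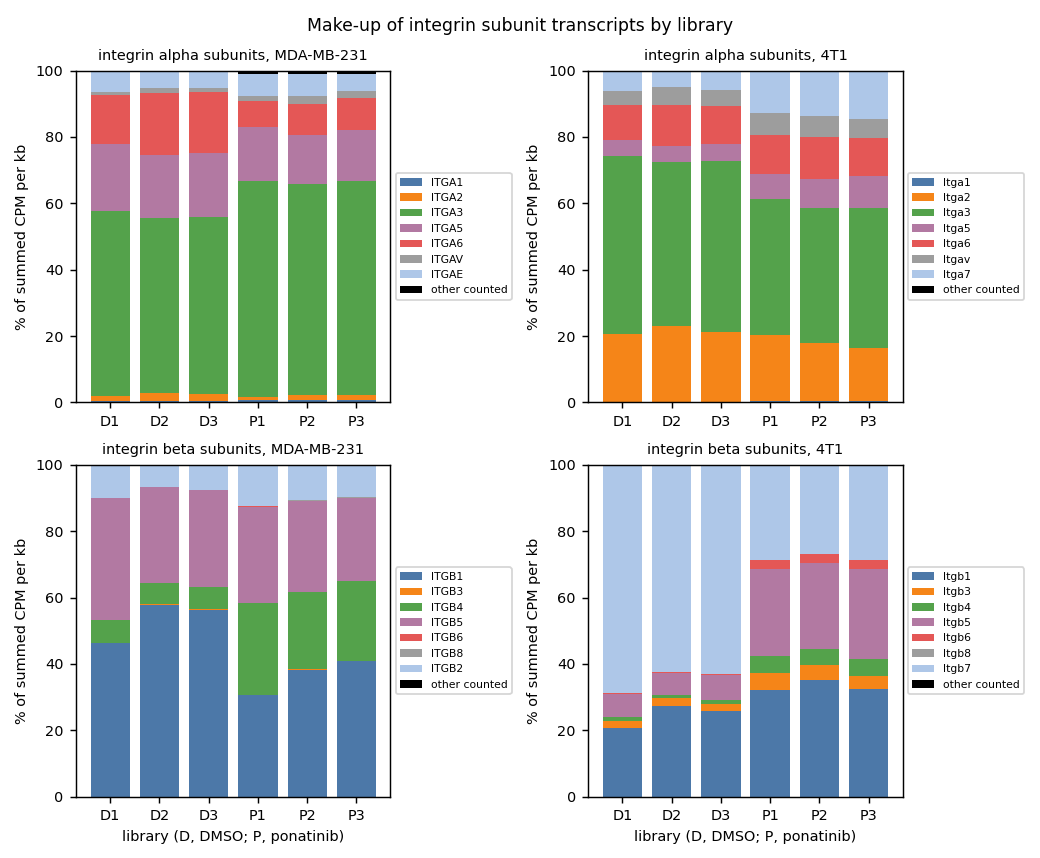
Stacked bars give each integrin subunit as a percentage of the summed CPM per kilobase of all counted alpha (top) or beta (bottom) subunits in each DMSO (D1 to D3) and ponatinib (P1 to P3) library of MDA-MB-231 (left) and 4T1 (right), with small parts drawn together as other counted. ITGB1 takes less and ITGB4 more of the beta bar in treated MDA-MB-231 libraries, while in 4T1 Itgb7 takes less and Itgb5 and Itgb1 take more.

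Of the adhesion kinases and docking proteins, PTK2B had the largest rise among the tested genes of the set in MDA-MB-231. PTK2B encodes PYK2, a kinase of the same family as focal adhesion kinase that also responds to calcium. Its level was 0.597, 0.648 and 0.440 CPM in the controls and 5.11, 7.39 and 6.08 CPM after ponatinib, still a low level, with a log2 fold change of 3.45 ± 0.27 (adjusted p = 1.1e-06). In 4T1, Ptk2b gave 43.7, 37.7 and 38.7 CPM and 48.4, 45.98 and 54.2 CPM (log2 fold change 0.31 ± 0.093, adjusted p = 0.01), a call lost without ponatinib library 3 (adjusted p = 0.063). Of the mouse exon bases, 22.8% are shared with Chrna2 on the other strand. PTK2, focal adhesion kinase itself, did not pass in either line, with 178 ± 12.1 and 169 ± 21.7 CPM in MDA-MB-231 (-0.073 ± 0.10, adjusted p = 0.56) and 159 ± 8.04 and 143 ± 4.71 CPM in 4T1 (-0.16 ± 0.071, adjusted p = 0.069, or 0.038 with the replicate block). PXN, paxillin, fell in MDA-MB-231 from 386 ± 15.7 to 320.0 ± 34.3 CPM (-0.27 ± 0.087, adjusted p = 0.02), a call lost without DMSO library 3 (adjusted p = 0.074), without ponatinib library 2 (0.085) and with total counts (0.13), and 23.7% of its exon bases are shared with PXN-AS1. In 4T1, Pxn gave 317 ± 11.7 and 285 ± 6.74 CPM (-0.15 ± 0.070, adjusted p = 0.071, or 0.039 with the replicate block and 0.042 with DESeq2). BCAR1, the SRC substrate p130Cas, fell in MDA-MB-231 from 228 ± 17.5 to 187 ± 3.005 CPM (adjusted p = 0.0072) and rose in 4T1 from 247 ± 22.4 to 297 ± 16.9 CPM (adjusted p = 0.012, and 0.063 without DMSO library 3).

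The proteins that link integrins to actin split by family member. TNS3 and TNS1, tensins that bind both beta tails and actin, showed opposite calls in MDA-MB-231. TNS3 stood at 59.1, 62.3 and 61.8 CPM and 136, 141 and 161 CPM (log2 fold change 1.26 ± 0.085, adjusted p = 4e-07). TNS1 stood at 26.6, 26.8 and 28.2 CPM and 11.99, 14.6 and 16.4 CPM (-0.92 ± 0.12, adjusted p = 6e-05). In 4T1 the picture was another one, since Tns1 rose from 4.05 ± 0.619 to 7.48 ± 1.31 CPM (0.89 ± 0.18, adjusted p = 0.00069) and Tns3 gave overlapping groups of 343 ± 30.1 and 338 ± 46.9 CPM (-0.022 ± 0.10, adjusted p = 0.86). The kindlins FERMT1 and FERMT2, which activate integrins together with talin, both fell in MDA-MB-231, from 16.98 ± 1.98 to 9.10 ± 0.313 CPM (-0.90 ± 0.13, adjusted p = 0.0001) and from 89.1 ± 8.90 to 59.0 ± 7.30 CPM (-0.60 ± 0.11, adjusted p = 0.0006). In 4T1, Fermt1 rose from 112 ± 0.0666 to 142 ± 8.34 CPM (adjusted p = 0.00076) and Fermt2 fell from 19.7 ± 1.09 to 15.4 ± 0.768 CPM (adjusted p = 0.011, and 0.071 with total counts). ZYX, zyxin, a protein recruited to adhesions under tension, fell in both lines, from 278 ± 30.3 to 217 ± 15.9 CPM in MDA-MB-231 (-0.35 ± 0.092, adjusted p = 0.0066) and from 289 ± 29.5 to 189 ± 10.9 CPM in 4T1 (-0.61 ± 0.084, adjusted p = 2.2e-05). For Zyx, 15.7% of the exon bases are shared with Epha1 and Fam131b on the other strand. Neither TLN1, talin, nor VCL, vinculin, passed the test in either line. TLN1 had a log2 fold change of -0.11 ± 0.071 in MDA-MB-231 (adjusted p = 0.21, or 0.0086 with the replicate block) and 0.076 ± 0.081 in 4T1 (adjusted p = 0.44, or 0.19 and 0.043 with total counts). VCL gave 147 ± 13.8 and 147 ± 17.2 CPM in MDA-MB-231 and 132 ± 11.3 and 132 ± 16.6 CPM in 4T1, and its exons overlap AP3M1 for 11.1% and 24.6% of their bases.

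ILK, PARVA and LIMS1 encode the pseudokinase ILK and the partners parvin and PINCH that bind it at adhesions. Parva rose in 4T1, from 70.6, 75.3 and 73.2 CPM to 102, 104 and 98.6 CPM (0.48 ± 0.072, adjusted p = 5e-05). In MDA-MB-231, PARVA gave 96.8 ± 2.66 and 98.1 ± 1.25 CPM (0.019 ± 0.071, adjusted p = 0.84), and LIMS1 did not pass in either line (-0.085 ± 0.13 and 0.079 ± 0.082, adjusted p = 0.59 and 0.43). ILK itself had 21 counts over the control and 26 over the treated libraries of MDA-MB-231, and 11 and 13 in 4T1, and was not tested. Of its exon bases, 78.5% in human and 90.3% in mouse are shared with other counted genes, TAF10 among them, on the other strand. The strand setting of the counting is not given in the sources used here, and the part of this overlap in the low counts was not tested.

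Of the genes that crosslink or build actin filaments, ACTN1 fell in both lines. ACTN1, a non-muscle alpha-actinin that bundles actin and binds integrin tails, lies at chr14:68874128-68979440 (hg38, ENSG00000072110). It gave 1340.1, 1307 and 1324 CPM and 633, 677 and 709 CPM in MDA-MB-231. In 4T1 it gave 903, 854 and 776 CPM and 578, 502 and 502 CPM. The treated libraries lay below the controls throughout, with log2 fold changes of -0.98 ± 0.073 (adjusted p = 8.7e-07) and -0.68 ± 0.086 (adjusted p = 9.9e-06). ACTN4, its close relative, fell in 4T1 from 346 ± 28.6 to 277 ± 9.59 CPM (-0.32 ± 0.078, adjusted p = 0.0025) and in MDA-MB-231 gave 1461 ± 34.5 and 1374 ± 38.4 CPM (-0.089 ± 0.069, adjusted p = 0.3, or 0.026 with the replicate block), with 14.2% of its human exon bases shared with CAPN12. FLNA, filamin A, which crosslinks actin into networks, did not pass in either line, at 0.17 ± 0.082 in MDA-MB-231 (adjusted p = 0.094, 4.8e-05 with the replicate block, 0.002 with total counts and 0.023 without DMSO library 1) and -0.22 ± 0.10 in 4T1 (adjusted p = 0.068, 0.0061 with the replicate block, 0.032 with DESeq2, 0.017 with no filter on low counts, 0.031 without DMSO library 3 and 0.0089 without ponatinib library 1).

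ACTB and ACTG1, the beta and gamma cytoplasmic actins, had the highest levels per kilobase of the set in every group. In MDA-MB-231 both fell. ACTB went from 6127, 5558 and 5703 CPM to 3958, 3823 and 3899 CPM (-0.57 ± 0.073, adjusted p = 4.4e-05) and ACTG1 from 3039 ± 126 to 2542 ± 38.5 CPM (-0.26 ± 0.071, adjusted p = 0.0087). In 4T1, Actb gave overlapping groups at 2307 ± 302 and 2294 ± 127 CPM (-0.0085 ± 0.10, adjusted p = 0.95), whereas Actg1 rose from 1209, 982 and 1130.3 CPM to 1781, 1722 and 1811 CPM (0.68 ± 0.087, adjusted p = 1.1e-05). ACTG1 thus changed in opposite directions in the lines, while ACTB fell in MDA-MB-231 and did not pass in 4T1. Even so, the part of ACTB in the summed level per kilobase of the actins was lower in every treated library of both lines. It was 63.9, 63.3 and 63.9% and 58.6, 58.5 and 58.4% in MDA-MB-231 and 69.3, 69.2 and 65.9% and 58.4, 56.7 and 56.2% in 4T1. The coding sequences of the actins are near identical, so reads that fit both may be split or dropped in the counting, and 13.0% of the exon bases of Actg1 are shared with other counted genes.

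The tropomyosins, which coil along actin filaments and decide which other proteins can bind them, moved in both directions in MDA-MB-231. TPM4 stood at 720.3, 761 and 768 CPM in the controls and 366, 399 and 394 CPM after ponatinib (-0.96 ± 0.073, adjusted p = 9.7e-07). TPM2 stood at 96.2, 77.1 and 76.9 CPM and 234, 197 and 180.5 CPM (1.29 ± 0.12, adjusted p = 3e-06). TPM1 stood at 51.9, 61.6 and 50.3 CPM and 88.9, 92.8 and 92.5 CPM (0.74 ± 0.091, adjusted p = 3.4e-05), with 22.7% of its exon bases shared with other counted genes. TPM3, a tropomyosin of the wider pathway list, fell from 999.6 ± 35.1 to 568 ± 28.4 CPM (-0.82 ± 0.074, adjusted p = 3.2e-06). Of the level per kilobase summed over all 4, TPM3 was 42.2% ± 1.21 and TPM4 38.7% ± 1.08 in the controls, against 27.1% ± 2.32 and 22.5% ± 1.78 after ponatinib, while TPM2 went from 16.7% ± 2.35 to 45.9% ± 4.36 and became the largest part. In 4T1, Tpm4 also fell, from 274, 327 and 347 CPM to 170.0, 209 and 202 CPM (-0.71 ± 0.10, adjusted p = 2.6e-05). There, however, Tpm2 was low in both groups at 7.09 ± 1.36 and 7.01 ± 1.12 CPM (-0.017 ± 0.17, adjusted p = 0.94), and Tpm1, the largest part, gave 713 ± 30.7 and 633 ± 39.8 CPM (-0.17 ± 0.078, adjusted p = 0.07, 0.025 with the replicate block, 0.036 with DESeq2 and 0.025 without DMSO library 1). The share of Tpm1 was 49.7% ± 1.53 and 55.9% ± 1.15, and that of Tpm4 38.7% ± 1.96 and 30.1% ± 1.10. ACTN1 likewise made up 27.9% ± 0.234 of the actinin sum and then 17.3% ± 0.423 in MDA-MB-231, and 72.0% ± 1.13 and then 66.7% ± 1.49 in 4T1. The families of tropomyosin, actin and actinin shares were chosen after the values had been seen, and shares that do not overlap again have p = 0.1 by the two-sided exact permutation test, the smallest possible.

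**Figure D4:**
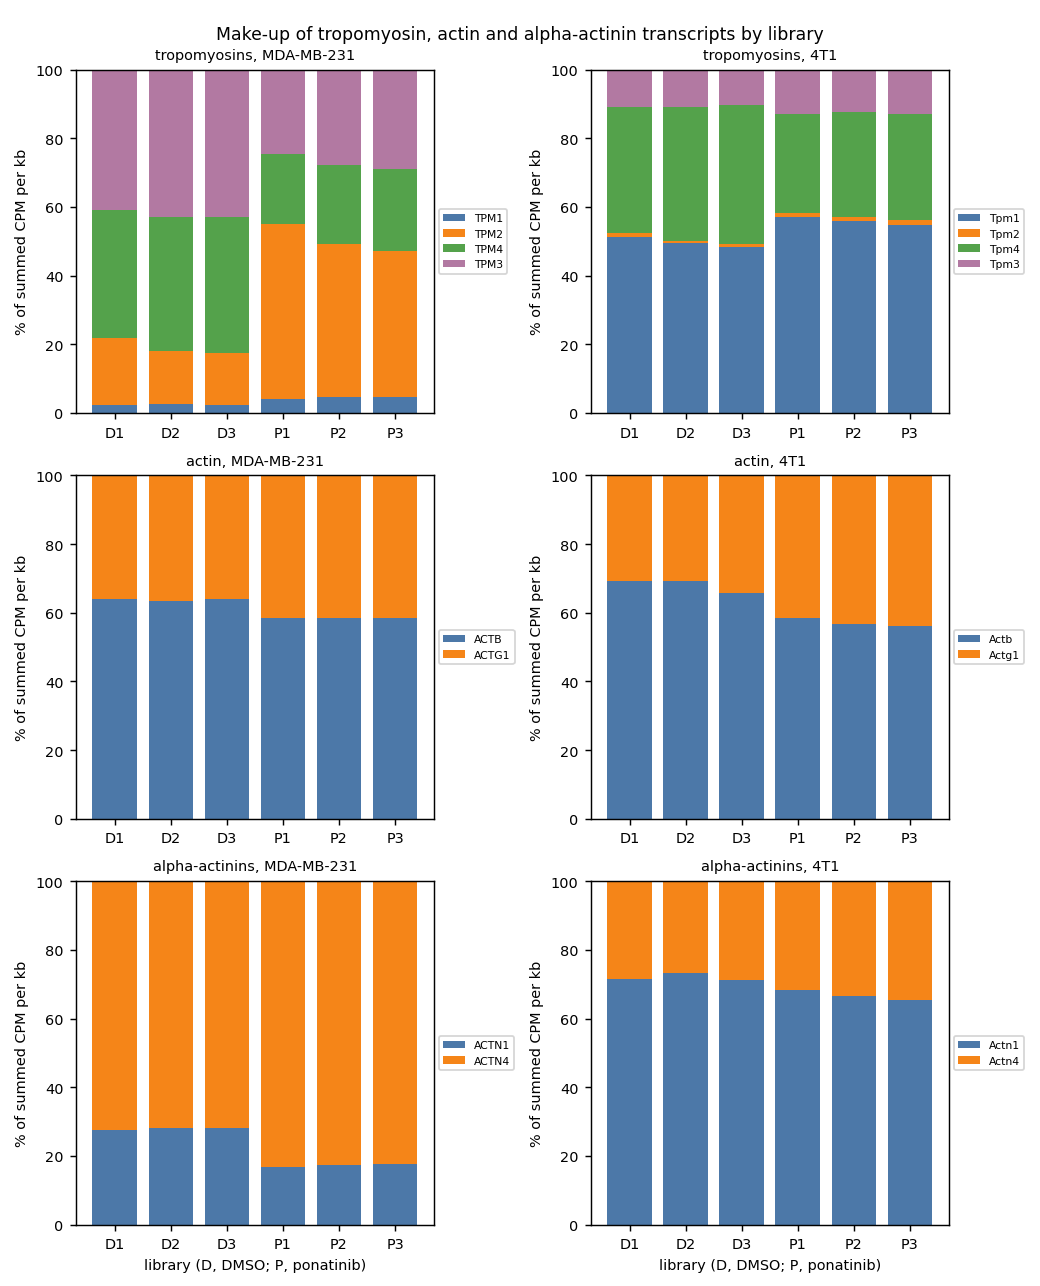
Stacked bars give each tropomyosin (top), cytoplasmic actin (middle) and non-muscle alpha-actinin (bottom) gene as a percentage of the summed CPM per kilobase in each DMSO (D1 to D3) and ponatinib (P1 to P3) library of MDA-MB-231 (left) and 4T1 (right). TPM2 becomes the largest tropomyosin part in treated MDA-MB-231 libraries, where TPM3 and TPM4 take less, and ACTB and ACTN1 take less of their bars in treated libraries of both lines.

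Among the other actin-binding contractile proteins, TAGLN2, transgelin-2, fell in both lines, from 1051 ± 87.9 to 853 ± 56.9 CPM (-0.30 ± 0.085, adjusted p = 0.01) and from 601 ± 28.5 to 497 ± 30.3 CPM (-0.27 ± 0.077, adjusted p = 0.0071, and 0.09 with total counts). TAGLN, the smooth muscle transgelin, fell in MDA-MB-231 from 43.3 ± 4.56 to 28.9 ± 2.92 CPM (-0.58 ± 0.11, adjusted p = 0.00077), with 34.1% of its exon bases shared with PCSK7 on the other strand. In 4T1, Tagln gave 2.32 ± 0.221 and 2.24 ± 0.311 CPM (-0.054 ± 0.23, adjusted p = 0.86). MYH9, the heavy chain of non-muscle myosin II, fell in MDA-MB-231 from 2101, 2046 and 2096 CPM to 1549, 1613 and 1744 CPM (-0.35 ± 0.074, adjusted p = 0.0018), and in 4T1 gave 2050.1 ± 162 and 2106 ± 128 CPM (0.039 ± 0.086, adjusted p = 0.72). Its regulatory light chain MYL9 did not pass in MDA-MB-231 (40.9 ± 1.53 and 45.3 ± 4.20 CPM, adjusted p = 0.2, or 0.044 with total counts). In 4T1, Myl9 was listed at 0 counts in all 6 libraries, which allows up to 0.169 CPM in the shallowest of them. CNN2, calponin 2, rose in 4T1 from 86.4, 86.04 and 85.3 CPM to 153, 154 and 169.8 CPM (0.89 ± 0.072, adjusted p = 1.2e-07), and in MDA-MB-231 gave overlapping groups (-0.067 ± 0.073, adjusted p = 0.46).

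SRF, the transcription factor, did not pass in either line. It was at 156, 138 and 154 CPM and 119.6, 133 and 136 CPM in MDA-MB-231 (-0.21 ± 0.083, adjusted p = 0.053, or 0.0015 with the replicate block, 0.047 with size factors of DESeq2, 0.034 with no filter on low counts and 0.035 without DMSO library 2), and at 103 ± 10.2 and 95.2 ± 6.84 CPM in 4T1 (-0.11 ± 0.086, adjusted p = 0.29). CAV1, caveolin-1, the coat protein of caveolae, had opposite calls. In MDA-MB-231 it rose from 319, 336 and 338 CPM to 480.5, 518 and 511 CPM (0.60 ± 0.071, adjusted p = 2.6e-05). In 4T1 it fell from 439.8, 463 and 471 CPM to 207, 215 and 211 CPM (-1.12 ± 0.071, adjusted p = 9.2e-09), and neither line showed overlap between its groups.

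The CArG box (10 letters, searched on both strands) was looked for in the RefSeq human promoter windows (GRCh38.p14), which run from 250 bases before to 50 bases after an annotated gene start. Of the 41 genes, 31 matched the table, with 62 windows, and 7 windows of 7 genes held a box (11.3% of windows). Over the whole table, 454 of 35116 windows held one (1.29%). The 41 genes were chosen to include actin genes of the SRF type, so a higher share can follow from that choice alone. ACTB, TAGLN and MYL9 had no window in the table and were not searched. The 7 genes with a box were ACTG1, ACTN1, CNN2, FLNA, ITGB6, SRF and TPM4. A match is a description of the letters and not a measured site of SRF binding. The stretches around the box are printed for the 5 genes in which no annotated exon lies in the stretch, because SRF is known to bind this box. Of the other actin genes with windows, ACTN4, MYH9, TPM1, TPM2 and TAGLN2 held none. They are written 5′ to 3′ on the strand of the gene with the box in capitals, and SRF holds a pair of boxes.
ACTG1 (chr17:81512859-81512918, minus strand): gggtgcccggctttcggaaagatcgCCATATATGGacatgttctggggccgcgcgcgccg
ACTN1 (chr14:68977703-68977762, minus strand): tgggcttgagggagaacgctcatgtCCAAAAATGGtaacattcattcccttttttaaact
CNN2 (chr19:1026494-1026553, plus strand): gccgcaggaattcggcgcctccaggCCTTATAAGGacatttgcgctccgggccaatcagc
SRF (chr6:43171214-43171268, plus strand): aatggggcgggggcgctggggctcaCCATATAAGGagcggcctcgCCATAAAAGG
TPM4 (chr19:16067340-16067399, plus strand): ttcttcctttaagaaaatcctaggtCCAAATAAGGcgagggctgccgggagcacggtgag
The box began 94 bases before the gene start in ACTG1, 171 in ACTN1, 89 in CNN2, 173 in TPM4, and 30 and 10 in SRF. Each distance is to the annotated start of the window that holds the box. ACTN1, TPM4 and SRF also had windows at other annotated starts, which held no box. For ACTN1 the stretch lies inside the gene span given above. In MDA-MB-231, ACTN1, TPM4 and ACTG1 fell and CNN2 and SRF did not pass, while in 4T1 Actn1 and Tpm4 fell, Actg1 and Cnn2 rose and Srf did not pass. FLNA did not pass in either line, ITGB6 was not tested in MDA-MB-231, and Itgb6 rose in 4T1. Mouse promoters were not searched, so the boxes are known for the human genes only. In MDA-MB-231 the tested genes with a box either fell or did not pass. In that line 17 of the 37 tested genes of the set fell, and 26.8% of all tested genes did. The genes with a box are too few for a direction to be read from them. Whether the box had a part in the changes of these genes was not tested.

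The responses of the lines were then compared gene by gene. Of the 36 genes tested in both lines, 9 fell in both (ITGA2, ITGA5, ITGA6, ITGB1, ZYX, FERMT2, ACTN1, TAGLN2 and TPM4), where 15% of all genes tested in both lines did, and 2 rose in both (ITGB4 and PTK2B), where 12.2% of all genes did. A further 6 passed in opposite directions, against 10.6% of all genes: ITGAV and CAV1 rose in MDA-MB-231 and fell in 4T1, while ACTG1, BCAR1, FERMT1 and TNS1 fell in MDA-MB-231 and rose in 4T1. In addition, 7 passed in MDA-MB-231 alone, 6 in 4T1 alone, and 6 in neither (PTK2, LIMS1, TLN1, SRF, VCL and FLNA). The share of all genes in these classes was not computed, so nothing is read from the size of these counts. Since a call in 1 line alone does not show a difference, the difference itself was tested in a joint fit over genes with the same symbol in both species. It passed for 22 of the 36, beside 49.6% of all genes tested in both lines and 41.9% of all genes in the joint fit, with the response in 4T1 the higher for 11 and the lower for 11.

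Among the 36, the largest differences were those of PTK2B (4T1 minus MDA-MB-231, -3.21 ± 0.27 on the log2 scale, adjusted p = 1.9e-08) and ITGA1 (2.48 ± 0.21, adjusted p = 1.7e-08). CAV1 followed (-1.79 ± 0.10, adjusted p = 9.7e-11), and then TNS1 (1.74 ± 0.22, adjusted p = 2.8e-06). For the genes that fell most in both lines the difference did not pass, with 0.13 ± 0.14 for ITGA6 (adjusted p = 0.49), 0.22 ± 0.12 for ACTN1 (0.14, or 0.015 with the replicate block, 0.032 with total counts and 0.03 without 4T1 DMSO library 1), 0.18 ± 0.13 for TPM4 (0.32, or 0.038 with the block) and -0.48 ± 0.22 for ITGA2 (0.087, or 0.007 with the block, 0.04996 with no filter on low counts, 0.0063 without MDA-MB-231 ponatinib library 1 and 0.036 without 4T1 ponatinib library 1). For ITGB4, which rose in both, the rise was smaller in 4T1 (-0.70 ± 0.13, adjusted p = 0.00024). Across the 36 genes, the log2 fold changes in the lines had a Pearson r of 0.26 and a Spearman coefficient of 0.29, beside 0.28 and 0.30 over the 9838 genes tested in both lines. These are descriptions over genes, which are not independent replicates, and the scatter of both responses shows them.

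**Figure D5:**
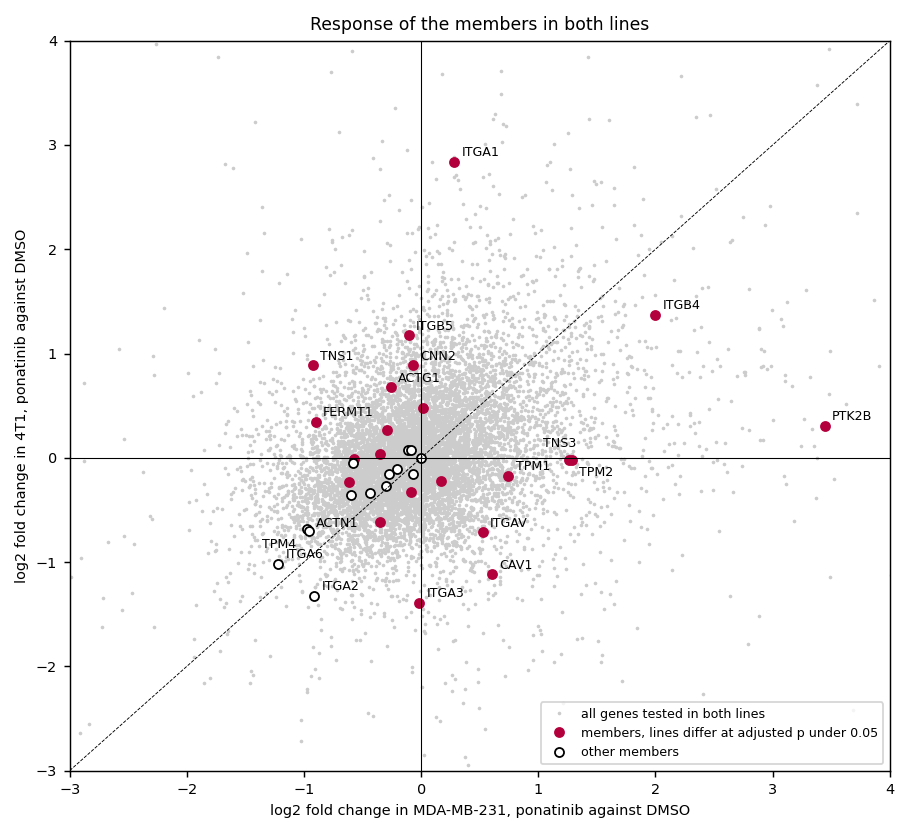
Log2 fold change of ponatinib against DMSO in MDA-MB-231 (x axis) and 4T1 (y axis) for genes tested in both lines; red circles are adhesion and actin genes whose response differed between the lines at an adjusted p under 0.05, open circles the other adhesion and actin genes, and gray dots all 9838 genes, of which 55 lie outside the plotted range. ITGA6, ITGA2, ACTN1 and TPM4 lie in the lower left, ITGB4 and PTK2B in the upper right, and CAV1 and ITGAV in the lower right.

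A further 96 genes of the same machinery, listed by role but with earlier results of these data known, were tested alongside. In MDA-MB-231, 79 of them were tested, with 29 lower and 19 higher (background 54%), and their median change was -0.11 on the log2 scale. In 4T1, 81 were tested, with 36 lower and 20 higher (background 59%), and the median was -0.19. Of the other integrins, 5 of 13 were tested in MDA-MB-231, of which 4 rose (27.2% of all genes were higher). The alpha subunits among these 4 were low, with mean shares of 0.29 to 0.32% of the summed alpha level after ponatinib. The beta subunit among them, ITGB2, was not a minor part. It held 7.97% ± 1.80 of the summed level of all counted beta subunits in the controls and 10.8% ± 1.37 after ponatinib, with overlapping shares. In 4T1, 6 were tested, with 1 lower and 1 higher (29.4% and 29.5% of all genes). The largest falls in MDA-MB-231 were those of SMTN, the contractile protein smoothelin, from 434, 362 and 353 CPM to 72.7, 66.5 and 68.4 CPM (-2.47 ± 0.10, adjusted p = 5.9e-09), the paxillin relative LPXN (-1.61 ± 0.089, adjusted p = 8.1e-08) and filamin C, FLNC (-1.02 ± 0.082, adjusted p = 1.4e-06). The largest rises there were those of the LIM protein FHL1, from 2.39, 2.72 and 2.52 CPM to 13.4, 19.1 and 15.7 CPM (2.66 ± 0.18, adjusted p = 3.4e-07), myosin light chain kinase, MYLK (1.70 ± 0.18, adjusted p = 1e-05), and another PINCH gene, LIMS2 (1.58 ± 0.14, adjusted p = 2.7e-06). In 4T1 the largest falls were those of the integrin subunit Itgb7, from 529, 434 and 431 CPM to 121, 111 and 119 CPM (-1.99 ± 0.091, adjusted p = 3.1e-10), the tensin Tns4 (-1.60 ± 0.10, adjusted p = 6.4e-09) and the SRC family kinase Fyn (-1.58 ± 0.11, adjusted p = 1.8e-08). The largest rises in 4T1 were those of villin, Vil1, an actin bundler of microvilli, from 35.6, 28.5 and 30.8 CPM to 173, 163 and 179 CPM (2.44 ± 0.091, adjusted p = 3.9e-11), another talin gene, Tln2 (1.46 ± 0.12, adjusted p = 1.1e-07), and Rsu1, a partner of PINCH (1.06 ± 0.093, adjusted p = 2.5e-07).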

How the data were processed

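Total RNA of established cell lines, for 12 libraries with 3 in each of 4 groups, had been made into NEBNext Ultra libraries and sequenced on an Illumina NovaSeq. The authors removed adapters and poly-N reads, used HISAT2 to align the human reads to hg38 and the mouse reads to GRCm39, and obtained gene counts with HTSeq. Each deposited file gives raw read counts per gene, not normalized. Tool versions, annotation release and strand setting are not given in the sources used here. Without strand, reads of a gene and its antisense partner cannot be told apart. The exon bases shared with other counted genes are therefore given, for the genes with the larger overlaps and not for every gene. Identifiers were named and placed with GENCODE v44 and vM39, which matched 81.9% of human and 91.1% of mouse identifiers, holding 99.3% and 99.8% of counts.

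Groups came from sample titles. The genes followed and all lists were chosen with earlier results of these data known. All 41 genes are described in both lines, and from the 96 other pathway genes the 3 largest rises and falls per line at an adjusted p under 0.05 with at least 10 CPM in the higher group are named, with the epithelial and mesenchymal markers. Outside this rule, TPM3, ITGB2 and Itga7 are named because of their shares, after the values had been seen. A group of the pathway genes is not reported here on its own. Counts were filtered (filterByExpr), TMM-scaled and tested in each line with the quasi-likelihood test of edgeR 4.0.16 in R 4.3.3 with Benjamini-Hochberg adjustment (14610 and 13286 genes). The difference between lines was tested over 12488 genes of shared symbol as a line by treatment term. The biological coefficient of variation was 0.0990 and 0.0869. The fits were tried on simulated counts in which few genes changed and no replicate effect was set. That check does not cover a response of the breadth seen here or a pairing of libraries. Exact intervals are Clopper-Pearson at 95%, and like floors of 3 counts cover counting error only. Replicates differed by more than sampling noise (chi-square per gene 2.93 to 16.5). Same-numbered libraries deviated together in all 6 pairs (correlation 0.111 to 0.345), so the replicate numbers were taken to pair libraries, which the sample titles do not state. The main fits left this pairing out, and their calls, p-values and standard errors do not use it. A fit with the number as a block is reported where it changes a call. The other alternatives were DESeq2 1.42.0, its size factors in edgeR, total counts, a minimum of 10 counts in every library, no filter on low counts, and leaving out each library.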

Additional observations from a re-analysis of the deposited data

Results flagged for a closer look

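The response to ponatinib differed between the lines at an adjusted p under 0.05 for 22 genes, by the line by treatment term in edgeR, and each value here is the log2 fold change in 4T1 minus that in MDA-MB-231. The response was higher in 4T1 for the integrin subunits ITGA1 (2.48), ITGB5 (1.21) and ITGA5 (0.31), and lower there for ITGAV (-1.31), ITGA3 (-1.45) and ITGB4 (-0.70). ITGA5 fell in both lines and ITGB4 rose in both, so these differences are of size and not of direction. ITGB3 and ITGB6, tested in 4T1 alone, also passed in the joint fit (3.16 and -3.41, adjusted p = 0.0044 and 0.033), on at most 17 counts per group in MDA-MB-231.

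Among the signaling and linker genes, the response was lower in 4T1 for PTK2B (-3.21), TNS3 (-1.35) and ZYX (-0.33) and higher for TNS1 (1.74), FERMT1 (1.17), BCAR1 (0.49) and PARVA (0.39). Among the actin genes it was higher in 4T1 for CNN2 (0.88), ACTG1 (0.86), ACTB (0.49) and MYH9 (0.31) and lower for TPM2 (-1.38), TPM1 (-0.99), FLNA (-0.47) and ACTN4 (-0.31). CAV1 had a difference of -1.79, with every treated library above the controls in MDA-MB-231 and below them in 4T1. Species, cell line and annotation differ together between the lines and cannot be told apart.

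The differences for ZYX, ACTN4, MYH9, FLNA and ITGA5 were the least stable. That of ZYX passed without MDA-MB-231 DMSO library 1 and without ponatinib library 3, and not without any other library (adjusted p 0.06 to 0.26), and it was lost with DESeq2 (0.077), its size factors (0.078), total counts (0.11) and at least 10 counts in every library (0.053). That of ACTN4 passed without DMSO library 1 and ponatinib library 1 of MDA-MB-231, and not without any other (0.06 to 0.17), with the size factors of DESeq2 (0.053) or with total counts (0.12). That of MYH9 did not pass without any of the 3 DMSO libraries or ponatinib libraries 1 and 2 of MDA-MB-231 or DMSO library 3 of 4T1 (0.056 to 0.087). FLNA did not pass without DMSO library 1 or ponatinib libraries 2 and 3 of 4T1 (0.056 to 0.077), nor ITGA5 without ponatinib library 2 of MDA-MB-231 (0.085).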

How the results depend on the processing

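No count of called genes moved by over 1.5 times under any alternative, and no gene past the threshold changed sign. With the replicate block, calls went from 24 to 29 in each line and differences from 22 to 25; these calls are given beside the genes, and no other call on the 41 genes or their differences changed. The block also moved calls on the 96 pathway genes from 48 to 59 (human) and from 56 to 61 (mouse), and the markers KRT18 (adjusted p = 0.017) and Krt19 (0.01) then passed. With libraries left out in turn, 21 to 25 human and 23 to 26 mouse genes were called, with 18 to 22 differences. DESeq2 gave 24 and 27 calls and 21 differences. Total counts moved the split of the 96 pathway genes to 23 lower and 20 higher (human) and 29 lower and 23 higher (mouse), that at the thresholds of the study to 6 lower and 7 higher and 6 and 8, and that of the differences to 9 lower and 13 higher in 4T1. With all counted subunits summed, an alternative added after seeing the data, the change in the share of Itgb1 turned from -23.6 to 8.61 percentage points in 4T1. The difference for TAGLN passed with total counts (0.041) and without 4T1 ponatinib library 1 (0.044). A count of 0 in a library limits a level to 0.2 CPM for human and 0.169 CPM for mouse libraries.

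Signs turned for genes near 0 that were not called, on the log2 scale. In MDA-MB-231 total counts gave 0.081 for ITGA3, 0.023 for PTK2, 0.0091 for LIMS1, 0.0080 for ACTN4 and 0.030 for CNN2, at least 10 counts in every library gave 0.014 for ITGA3, and no filter gave -0.010 for PARVA. VCL gave -0.0048 with DESeq2, -0.0048 with its size factors, -0.028 with no filter and -0.00087 with the replicate block. In 4T1 total counts gave 0.095 for Tns3, 0.11 for Actb, 0.064 for Tagln, 0.10 for Tpm2 and 0.0068 for Srf, at least 10 counts gave 0.0080 for Actb, and Vcl gave -0.0074 with DESeq2, -0.0073 with its size factors and -0.0015 with the block. Total counts gave a difference of 0.029 for VCL and 0.057 for TAGLN2. Leaving out 1 library in turn gave ranges of -0.042 to 0.016 for ITGA3, -0.14 to 0.027 for PTK2, -0.086 to 0.080 for VCL and -0.017 to 0.026 for PARVA in MDA-MB-231, of -0.10 to 0.074 for Vcl, -0.14 to 0.048 for Tns3, -0.0020 to 0.13 for Lims1, -0.067 to 0.10 for Actb, -0.14 to 0.053 for Tagln, -0.028 to 0.075 for Myh9 and -0.15 to 0.12 for Tpm2 for the mouse line, and, for the difference between lines, -0.13 to 0.16 for ITGB1, -0.010 to 0.13 for PXN, -0.15 to 0.056 for VCL, -0.11 to 0.057 for TAGLN2 and -0.028 to 0.16 for SRF. The cause of these turns was not tested.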
